A study of Mus musculus with 16 samples.

Results

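The genes described here are Rgs1, Rgs2, Rgs16 and Rgs18, which encode regulators of G protein signaling, and Gem, which encodes a small GTPase of the RGK family. They were the rows of the count table with exactly these gene symbols, 5 of 14829 genes, and all 5 were found. RNA was sequenced from hematopoietic stem cells (HSCs), the cells of the bone marrow that give rise to all blood lineages, of 4 young and 4 old mice. Marrow from each mouse was divided, and the portions were kept at 37 °C for 1 h with vehicle or with dmPGE2, a long-lived dimethyl form of prostaglandin E2, before the stem cells were sorted and their RNA was extracted. The libraries formed 4 groups of 4, namely young vehicle (mice 477, 478, 483 and 484), young dmPGE2 (the same mice), old vehicle (mice 479, 480, 485 and 486) and old dmPGE2 (the same mice). The labels give no strain, sex, genotype or age in months, and no vehicle by name. The library names carry 2 dates whose meaning they do not state. Mice 477 to 480 belong to date 1 and mice 483 to 486 to date 2, with 2 young and 2 old mice on each.

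Prostaglandin E2 acts through G protein-coupled receptors, some of which raise cAMP through the stimulatory G protein, and cAMP in turn switches on a group of early genes through protein kinase A and the transcription factor CREB. RGS proteins end the signals of certain heterotrimeric G proteins by binding the GTP-loaded alpha subunit and speeding its hydrolysis of GTP. Several of them are themselves induced by the signals they restrain. Gem works by another route, binding the beta subunit of voltage-gated calcium channels and so inhibiting them, and its gene is induced quickly in T cells stimulated by mitogens. In stem cells of the marrow, receptors coupled to inhibitory G proteins, such as the chemokine receptor Cxcr4, serve retention in the niche, which is one setting in which RGS proteins are studied.

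Of the RGS genes, 3 lie close together on mouse chromosome 1 (build mm10, positions from the deposited table). Rgs2 spans chr1:143999338-144004149, Rgs1 spans chr1:144244669-144249104 and Rgs18 spans chr1:144752841-144775421, all on the minus strand. Rgs16 lies farther along, at chr1:153740353-153745468 on the plus strand, and Gem lies on chromosome 4, at chr4:11704447-11714993 on the plus strand. Each gene has 5 exons in the table, with exon lengths of 1330 bases for Rgs1, 3009 for Rgs2, 1859 for Rgs18, 2335 for Rgs16 and 2257 for Gem. In the GENCODE M21 annotation of this build, Rgs16 alone was overlapped by another gene, an antisense RNA named Gm28513. Of 2290 different 50-base stretches of Rgs16 transcripts, 191 were shared with that RNA. Reads from the shared part cannot be told apart in unstranded libraries. The other 4 shared no 50-base stretch of their transcripts with another gene.

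Promoter sequences (RefSeq, GRCm38.p6) matched 2 of the 5 genes, Rgs2 and Rgs16. No promoter was at hand for Rgs1, Rgs18 or Gem. Rgs2 was called higher with dmPGE2 on both dates, as described below. Rgs16 was hardly detected, so the windows do not compare a gene that rose with a gene that did not. The 250 bases before each gene's start are shown on the gene's own strand, with capitals marking the CREB half-site TGACG or its reverse complement CGTCA. The Rgs2 window is chr1:144004150-144004399 (minus strand) and the Rgs16 window is chr1:153740103-153740352 (plus strand).
Rgs2: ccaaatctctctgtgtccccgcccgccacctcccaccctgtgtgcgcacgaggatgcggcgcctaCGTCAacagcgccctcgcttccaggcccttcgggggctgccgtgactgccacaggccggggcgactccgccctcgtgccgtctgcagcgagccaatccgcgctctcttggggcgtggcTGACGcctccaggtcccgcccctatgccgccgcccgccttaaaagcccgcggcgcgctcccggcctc
Rgs16: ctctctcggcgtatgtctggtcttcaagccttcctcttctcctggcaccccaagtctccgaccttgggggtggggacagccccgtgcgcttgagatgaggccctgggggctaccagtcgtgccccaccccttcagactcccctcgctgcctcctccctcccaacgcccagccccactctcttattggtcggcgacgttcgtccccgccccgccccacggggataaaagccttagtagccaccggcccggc
The Rgs2 promoter held the half-site 67 bases before the start and its reverse complement 185 bases before the start. The Rgs16 window held neither, and neither window held the full site TGACGTCA. Over 32851 promoter windows of the same length, searched on both strands, 1.55% held TGACGTCA, 17.8% held at least 1 half-site and 3.90% held 2 or more, where a full site counts as a half-site on each strand. These matches describe letters in a window and were not tested as binding sites.

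Library totals ran from 12960704 to 19226963 counts. The stem cell label was checked against 15 HSC markers, among them Kit, Procr, Slamf1, Mecom and Hlf. All 15 were in the table and none was at 0 in any library, with a summed level of 5426 to 7089 CPM (counts scaled to library size) on date 1 and 3818 to 5700 on date 2. Markers of some other blood cells differed between the dates: 14 neutrophil genes summed to 124 to 309 CPM on date 1 and to 2176 to 4623 on date 2. For 12 T and NK cell genes the sums were 78.4 to 197 and 223 to 403, and for 12 monocyte and macrophage genes 531 to 744 and 968 to 1717. The sums of the dates overlapped for B cell (323 to 1198 and 345 to 1125) and erythroid genes (1622 to 2050 and 1904 to 3501). They also overlapped for platelet and megakaryocyte genes (1228 to 2296 and 904 to 2353). In these bulk libraries, fewer cells of a type and less RNA per cell cannot be told apart.

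Per kilobase of exon, the scale on which genes can be compared, Rgs1 was the most abundant of the 5, with a median of 448 CPM per kb over the 16 libraries. Rgs18 followed at 144, Rgs2 at 124, Gem at 40.3 and Rgs16 at 0.265 CPM per kb. The order differed between dates, treatments and ages. In the 4 vehicle libraries of date 1, Rgs18 (134 to 176 CPM per kb) stood above Rgs1 (76.5 to 146) in every library, while Rgs2 (18.9 to 24.9) and Gem (10.8 to 45.2) were ordered by age, with Rgs2 above Gem in both young libraries (24.9 and 22.0 against 10.8 and 13.3) and below it in both old ones (19.0 and 18.9 against 45.2 and 42.1). In the 4 vehicle libraries of date 2, Rgs1 (361 to 509.9) was above Rgs18 (119 to 156) in 4 of 4, and Rgs18 was above Rgs2 (87.8 to 129) in 3 of 4. In the 8 dmPGE2 libraries Rgs1 was on top in 8 of 8 (415 to 629 CPM per kb), and Rgs18 (109 to 191) and Rgs2 (121 to 192) were each the higher in 4. Rgs2 was above Rgs18 in all 4 young dmPGE2 libraries and below it in all 4 old ones.

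**Figure D1:**
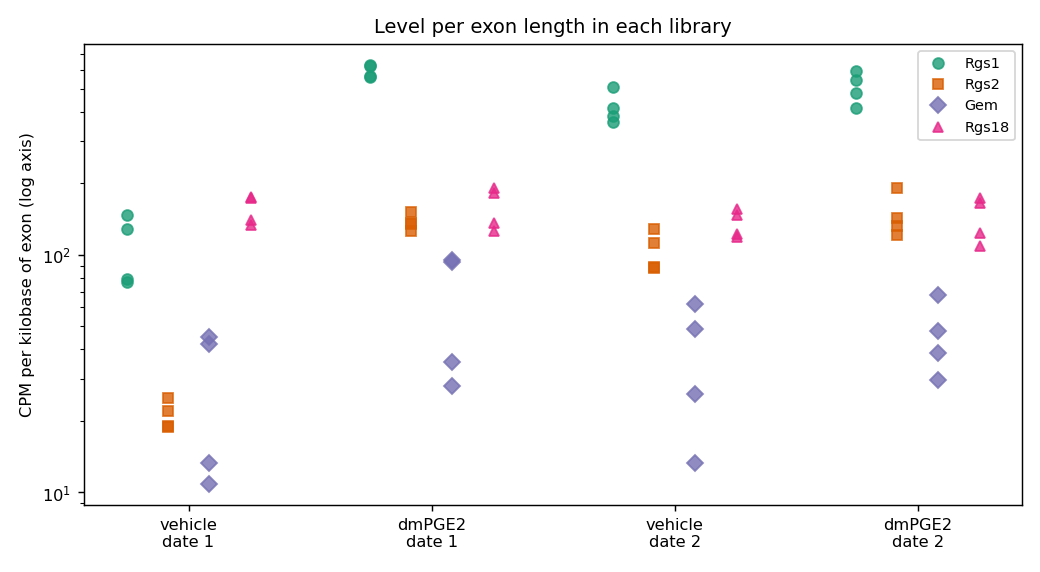
Level of 4 of the genes in each of the 16 libraries, in CPM per kilobase of exon on a log axis, by date and treatment (Rgs16, with a median of 0.265, is left out). Each point is 1 library. Rgs1 and Rgs2 sat low in the vehicle libraries of date 1 and high elsewhere, while Rgs18 kept to 109 to 191 throughout.

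dmPGE2 was followed by more Rgs1, Rgs2 and Gem RNA, and how much more depended on the date. Over all 8 mice, with each mouse compared with itself, Gem alone among the 5 members passed the test (edgeR quasi-likelihood test, Benjamini-Hochberg adjustment over 13942 genes, threshold 0.05), against 0.610% of all genes in either direction and 0.509% higher. Its rise was 1.81-fold (log2 0.86 ± 0.16 SE, adjusted p = 0.0488). Rgs1 (log2 1.40 ± 0.49, adjusted p = 0.321) and Rgs2 (1.59 ± 0.48, 0.263) had larger estimates that did not pass, and their changes ranged from log2 0.11 to 3.02 and from 0.36 to 2.84 over the mice. On date 1, 3 of the 5 members rose, Rgs1, Rgs2 and Gem, where 2.93% of all genes were called and 2.42% were called higher. On date 2 edgeR called Rgs2 alone higher and DESeq2 called 3 members (Rgs1, Rgs2 and Gem). By edgeR, 0.387% of all genes were called on that date and 0.366% called higher.

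Rgs1 encodes a GTPase-activating protein for inhibitory and Gq-type alpha subunits that restrains chemokine-driven migration of lymphocytes. On date 1 its level went from 102 CPM with vehicle to 825 with dmPGE2 in young mouse 477 and from 106 to 744 in young mouse 478. In the old mice it went from 195 to 836 CPM (mouse 479) and from 171 to 752 (mouse 480). The vehicle and dmPGE2 libraries of date 1 lay far apart, with no overlap. On date 2 the vehicle libraries were already high, and the levels went from 678 to 786 CPM in young mouse 483, from 479.6 to 639.9 in young mouse 484, from 511 to 552 in old mouse 485 and from 552 to 724 in old mouse 486. Every one of the 8 mice had more Rgs1 with dmPGE2, but on date 2 the groups overlapped. The rise was 5.76-fold on date 1 (log2 2.53 ± 0.06, adjusted p = 3.68e-10). On date 2 the ratio was 1.22 (log2 0.28 ± 0.06, adjusted p = 0.103) and did not pass. The difference between the dates was itself called (log2 -2.24 ± 0.09, adjusted p = 5.26e-08), in a comparison in which 1.08% of all genes were called, 1.01% as lower on date 2, and 3 of the 5 members were called, all lower. That contrast was chosen with a larger response on date 1 already seen in these data.

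Rgs2 encodes an RGS protein with a preference for Gq alpha subunits that also inhibits some adenylyl cyclases, and it is known as an early gene induced by cAMP. On date 1 Rgs2 went from 74.8 to 457 CPM (mouse 477) and from 66.2 to 405 (mouse 478) in the young mice, and from 57.0 to 409 (mouse 479) and from 56.8 to 380.0 (mouse 480) in the old mice. All 4 changes lay within a narrow span of log2 2.61 to 2.84. On date 2 it went from 387 to 577 CPM (mouse 483), from 336 to 430.0 (mouse 484), from 264 to 398 (mouse 485) and from 268 to 364 (mouse 486), with changes of log2 0.36 to 0.59. Vehicle and dmPGE2 libraries did not overlap on date 1. On date 2 they overlapped only with the ages pooled, and within each age the dmPGE2 libraries stood above the vehicle libraries. Every mouse had more Rgs2 with dmPGE2. The estimated rise was 6.54-fold on date 1 (log2 2.71 ± 0.06, adjusted p = 1.56e-10) and 1.41-fold on date 2 (0.49 ± 0.06, adjusted p = 0.00222). By edgeR, Rgs2 was the only member that rose on both dates. DESeq2 also called Rgs1 (adjusted p = 0.000571) and Gem (0.0258) higher on date 2. The Rgs2 response was lower on date 2 by a called difference (log2 -2.22 ± 0.08, adjusted p = 3.66e-08).

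Gem, the calcium channel inhibitor, went from 24.4 to 79.9 CPM (mouse 477) and from 29.9 to 63.5 (mouse 478) in the young mice of date 1, and from 102 to 214 (mouse 479) and from 94.9 to 210.1 (mouse 480) in the old. On date 2 it went from 58.8 to 87.1 CPM (mouse 483) and from 30.0 to 67.0 (mouse 484) in the young mice, and from 109.5 to 107 (mouse 485) and from 139.7 to 154 (mouse 486) in the old. Gem was thus higher with dmPGE2 in 7 of 8 mice, and the smallest changes were those of the old mice of date 2. The rise was 2.39-fold on date 1 (log2 1.26 ± 0.12, adjusted p = 4.6e-05), and the date 2 ratio of 1.37 (0.45 ± 0.12, adjusted p = 0.228) did not pass. The difference between the dates was log2 -0.80 ± 0.17 (adjusted p = 0.0459), was called in 2 of 8 fits that each left out 1 mouse, and was not called without the mouse block (adjusted p = 0.297). The call over all mice was also close to the threshold: it was lost without mouse 477, 478, 479, 480 or 484, with adjusted p of 0.108 to 0.197, and held in the other 3 fits.

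**Figure D2:**
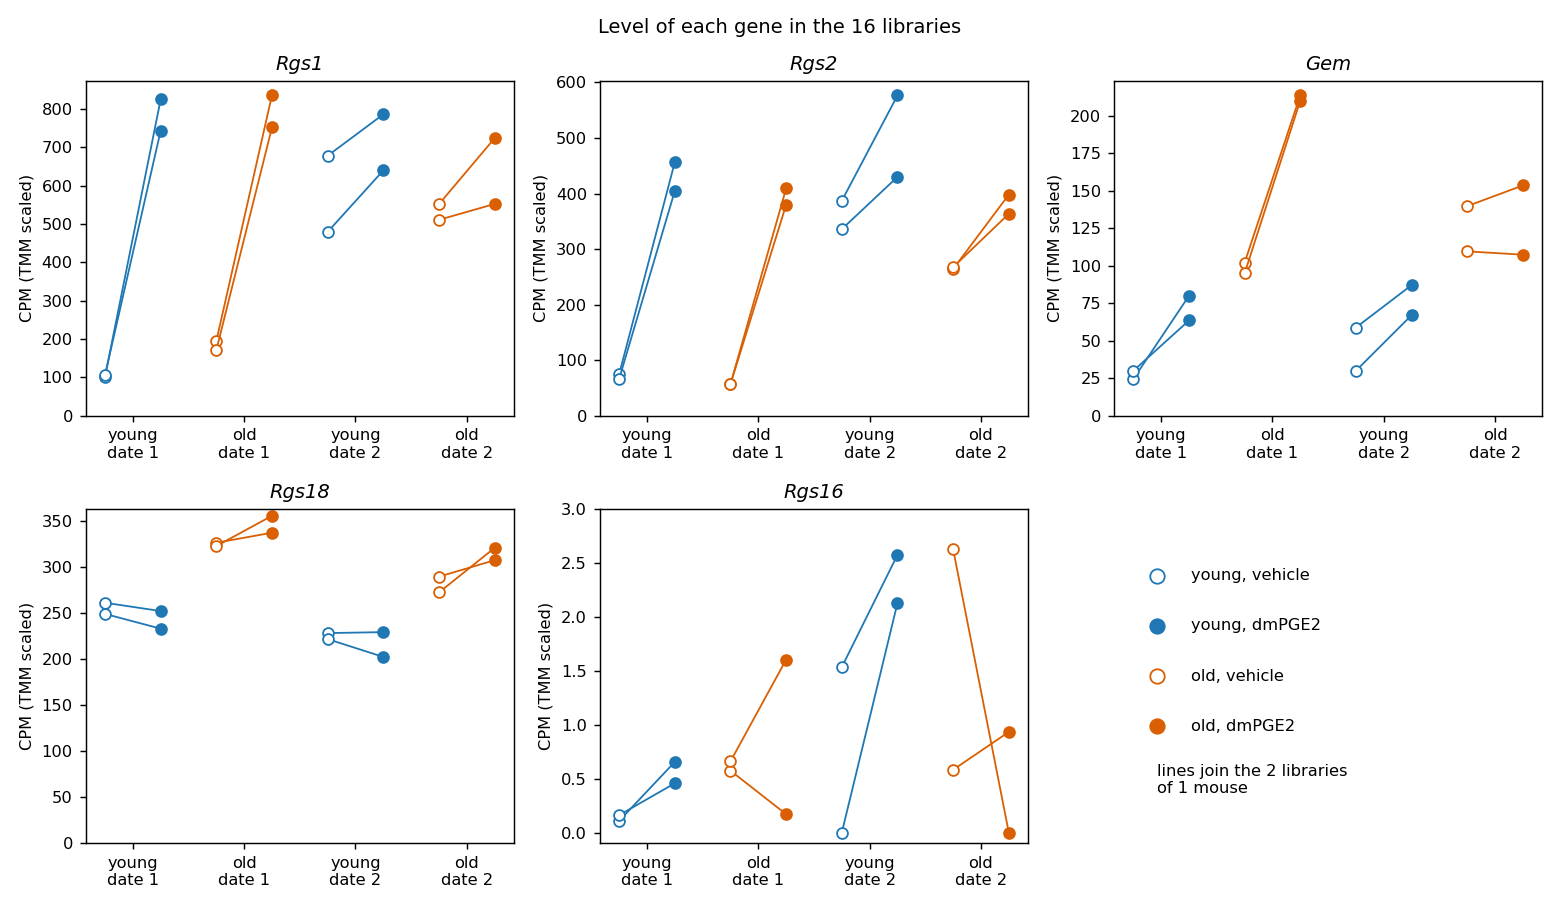
Level of each gene in CPM (scaled by TMM, linear axes) in the 16 libraries, by age and date, with open circles for vehicle, filled circles for dmPGE2 and lines joining the libraries of 1 mouse. The steep lines of date 1 and the flatter ones of date 2 are those of Rgs1 and Rgs2. Rgs18 and Gem lay higher in old than in young mice in both arms.

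Rgs18, an RGS protein abundant in megakaryocytes and platelets, did not pass the test in any dmPGE2 comparison. In young mice the levels with vehicle and dmPGE2 were 261 and 252 CPM (mouse 477), 249 and 233 (mouse 478), 228 and 229 (mouse 483), and 222 and 202 (mouse 484). In old mice they were 326 and 337 (mouse 479), 323 and 356 (mouse 480), 272 and 321 (mouse 485), and 289.5 and 307 (mouse 486). Young mice had a higher level with dmPGE2 in 1 of 4 and old mice in 4 of 4. The estimated change was log2 -0.07 ± 0.05 in young mice (adjusted p = 0.662), 0.13 ± 0.05 in old mice (adjusted p = 0.556) and 0.20 ± 0.08 for the difference between them (adjusted p = 0.696). Over all mice it was 0.03 ± 0.04 (adjusted p = 0.783), with a 95% interval of -0.05 to 0.12.

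Rgs16, which like Rgs1 acts on inhibitory and Gq-type alpha subunits, was hardly detected. Its raw counts with vehicle and dmPGE2 were 2 and 12 (mouse 477), 3 and 9 (mouse 478), 23 and 37 (mouse 483), and 0 and 32 (mouse 484) in young mice. In old mice they were 10 and 3 (mouse 479), 12 and 26 (mouse 480), 40 and 0 (mouse 485), and 9 and 14 (mouse 486). The highest level was 2.62 CPM, and a count of 0, read as up to 3 counts, allows up to 0.2315 CPM in the vehicle library of mouse 484 and up to 0.196 in the dmPGE2 library of mouse 485, counting error only. Rgs16 was higher with dmPGE2 in 6 of 8 mice, and vehicle and dmPGE2 libraries overlapped in both ages. The estimated change was log2 0.69 ± 0.95 over all mice (adjusted p = 0.833), 0.97 ± 1.31 on date 1 (0.836) and 0.25 ± 1.55 on date 2 (0.984). The 95% interval over all mice was log2 -1.36 to 2.74, and the counts moved in opposite directions in different mice.

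**Figure D3:**
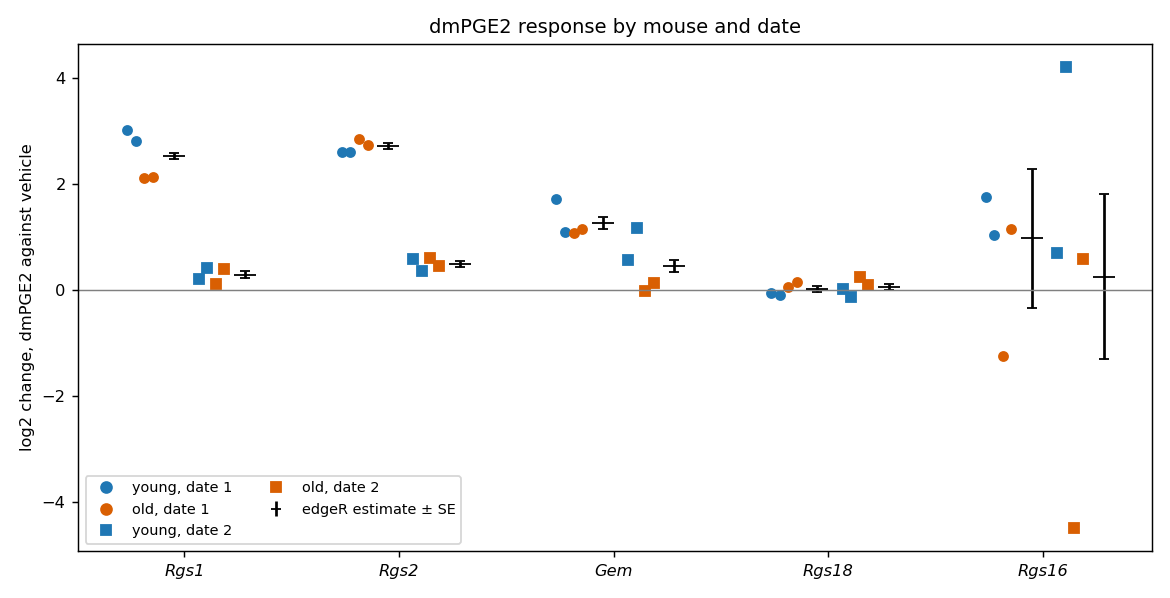
Change of each gene with dmPGE2 in each mouse, as the log2 difference of CPM (prior count 2), with circles for date 1, squares for date 2 and black marks for the edgeR estimate ± SE of each date. Rgs1 changed by 2.10 to 3.02 on date 1 and by 0.11 to 0.42 on date 2. Rgs18 lay near 0 in every mouse, and Rgs16 was scattered widely.

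Within each age, edgeR called 0 of 13942 genes, and so 0 of the 5 members, for the dmPGE2 response of young mice (1785 genes had an unadjusted p under 0.05, and DESeq2 called 277) and of old mice (1096 genes, DESeq2 114). In young mice the estimates were log2 1.61 ± 0.71 for Rgs1, 1.53 ± 0.67 for Rgs2 and 1.13 ± 0.23 for Gem (adjusted p = 0.426, 0.423 and 0.142). In old mice they were 1.19 ± 0.68, 1.65 ± 0.68 and 0.59 ± 0.22 (0.773, 0.637 and 0.556). These fits averaged the mice of both dates. With age and date kept apart, an alternative added after the data were seen, Rgs1, Rgs2 and Gem all rose on date 1 in both ages. The share of all genes called was 1.79% in young mice and 1.77% in old mice. The rises there were log2 2.92 ± 0.09, 2.61 ± 0.09 and 1.40 ± 0.17 in young mice and 2.13 ± 0.09, 2.81 ± 0.09 and 1.12 ± 0.16 in old mice. On date 2 Rgs2 rose in young (0.47 ± 0.08, adjusted p = 0.0376) and old mice (0.52 ± 0.08, adjusted p = 0.0463), where 0.337% and 0.136% of all genes were called.

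Whether old mice responded differently was tested directly. Over both dates edgeR called 0 of 13942 genes for that difference, with 955 at an unadjusted p under 0.05 and 17 called by DESeq2. The old minus young differences were log2 -0.42 ± 0.97 for Rgs1, 0.12 ± 0.94 for Rgs2, -0.54 ± 0.32 for Gem and -3.16 ± 1.86 for Rgs16. On date 1 alone, where 0.0359% of all genes were called, the Rgs1 response was log2 -0.79 ± 0.12 different in old mice, with an unadjusted p of 4.95e-05 and an adjusted p of 0.0987 by edgeR. That difference did not pass, and it came with a higher vehicle level of Rgs1 in the old mice of that date, 171 and 195 CPM against 102 and 106. On date 2 the largest of the members' differences apart from Rgs16 was that of Gem, log2 -0.80 ± 0.23 (adjusted p = 0.491).

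For Rgs1 and Rgs2 the vehicle libraries of the dates differed. With vehicle, Rgs1 was 4.01-fold higher on date 2 than on date 1 (log2 SE 0.19, adjusted p = 0.000158) and Rgs2 was 4.88-fold higher (2.29 ± 0.08, adjusted p = 1.48e-08). The vehicle libraries of the dates did not overlap for either gene, at 102 to 195 against 479.6 to 678 CPM for Rgs1 and 56.8 to 74.8 against 264 to 387 for Rgs2. Rgs18 was slightly lower on date 2 (log2 -0.20 ± 0.06, adjusted p = 0.0481), a call kept in 1 of 8 fits that each left out 1 mouse, and Gem did not pass (0.52 ± 0.19, adjusted p = 0.110). That made 3 of the 4 members that could be tested, against 11.0% of all genes. In the dmPGE2 libraries, compared the same way after the data were seen, 0 members were called, against 11.7% of all genes. There the date 2 minus date 1 differences were log2 -0.24 ± 0.10 for Rgs1 and 0.07 ± 0.10 for Rgs2 (adjusted p = 0.143 and 0.700).

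Markers of other cells moved with this difference of the vehicle libraries. On date 2, 13 of 14 neutrophil genes, 10 of 12 T and NK cell genes, 7 of 12 monocyte and macrophage genes and 7 of 8 erythroid genes were higher, and 11 of 15 HSC markers were lower. None of the 14 neutrophil genes was at 0 in all libraries of a date. Their summed level on date 2 was 2176 to 4623 CPM with vehicle and 2232 to 3836 with dmPGE2. None of them was called between vehicle and dmPGE2 over all mice or on either date. With dmPGE2 their sum on date 1 was 124 to 309 CPM, also below that of date 2. Early genes known to be induced by cAMP moved the same way as Rgs1 and Rgs2: 11 of 13 were higher with vehicle on date 2, among them Nr4a1 (27.9-fold) and Sik1 (6.24-fold). The part of other cells in the levels of Rgs1 and Rgs2 was not tested.

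Age was compared within each arm with a term for date. In the vehicle libraries 3 of 4 testable members differed, against 17.3% of all genes. Gem and Rgs18 were higher and Rgs2 was lower in old mice, where 8.47% of all genes were called higher and 8.86% lower. Rgs16 did not pass the filter on low counts there. In the dmPGE2 libraries Gem and Rgs18 were higher, 2 of 5 members, against 14.3% of all genes called and 7.85% called higher.

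Gem averaged 35.8 ± 15.6 CPM (SD, n = 4) in young vehicle and 112 ± 19.7 in old vehicle, and the lowest old library, at 94.9, stood above the highest young one, at 58.8. It was 3.14-fold higher in old mice (log2 1.65 ± 0.19, adjusted p = 0.000325). With dmPGE2 the averages were 74.4 ± 11.0 and 171 ± 50.7 CPM, again without overlap, and the ratio was 2.23 (log2 1.16 ± 0.18, adjusted p = 0.00180). Gem was higher in old mice on each date taken alone, by log2 1.84 ± 0.27 and 1.46 ± 0.27 with vehicle and by 1.55 ± 0.19 and 0.76 ± 0.19 with dmPGE2, all called. The age difference of Gem was itself not called as different between the dates, at log2 -0.38 ± 0.37 with vehicle (adjusted p = 0.951) and -0.79 ± 0.26 with dmPGE2 (adjusted p = 0.494, where 0.0377% of all genes were called and 0 of 5 members). Among all genes, 6.47% and 7.91% were called for age on dates 1 and 2 with vehicle, and 5.83% and 8.26% with dmPGE2.

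Rgs18 averaged 240.1 ± 18.3 CPM (SD, n = 4) in young vehicle and 303 ± 26.2 in old vehicle. It was 1.24-fold higher in old mice (log2 0.31 ± 0.06, adjusted p = 0.00404), a call lost without a term for date (adjusted p = 0.0571). With dmPGE2 the averages were 229 ± 20.5 and 330.2 ± 20.8 CPM and the ratio was 1.43 (log2 0.52 ± 0.06, adjusted p = 0.000484). Young and old libraries did not overlap in either arm. Rgs18 passed on each date alone with dmPGE2 (log2 0.50 ± 0.09 and 0.54 ± 0.09) and on date 1 with vehicle (0.33 ± 0.08), while the date 2 vehicle estimate of 0.29 ± 0.08 did not pass (adjusted p = 0.0644). Platelet and megakaryocyte markers moved alongside: the 12 genes summed to 904 to 1285 CPM in young vehicle and to 1877 to 2353 in old vehicle, and 3 of the 11 tested were higher in old mice in each arm, with Vwf 4.45-fold higher with vehicle. HSC markers were higher in old mice too, 11 of 15 with vehicle and 7 of 15 with dmPGE2. Of the neutrophil genes, 5 of 14 were lower and 1 was higher in old vehicle. Of all genes, 8.47% were called higher and 8.86% lower with vehicle, and 7.85% higher with dmPGE2. The part of these markers in the levels of Rgs18 and Gem was not tested.

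Rgs2 was the one member that was lower in old mice, by 1.32-fold with vehicle (log2 -0.40 ± 0.07, adjusted p = 0.00448). The young and old libraries separated only within a date, at 66.2 and 74.8 CPM against 56.8 and 57.0 on date 1 and at 336 and 387 against 264 and 268 on date 2. The lower level was called on date 2 alone (log2 -0.47 ± 0.10, adjusted p = 0.0250), was not called on date 1 alone (-0.33 ± 0.11, adjusted p = 0.111), and was lost without a term for date (adjusted p = 0.809). With dmPGE2 the difference was log2 -0.27 ± 0.10 (adjusted p = 0.0923). Rgs1 did not pass in either arm, at log2 0.32 ± 0.19 with vehicle (adjusted p = 0.290) and -0.08 ± 0.10 with dmPGE2 (0.646). On date 1 alone it was higher in old vehicle (log2 0.80 ± 0.15, 1.74-fold, adjusted p = 0.0125), on date 2 it was not (-0.15 ± 0.14, adjusted p = 0.586), and the difference between those values was log2 -0.95 ± 0.21 and was not called (adjusted p = 0.410). Rgs16 gave log2 -0.83 ± 1.07 with dmPGE2 (adjusted p = 0.665).

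**Figure D4:**
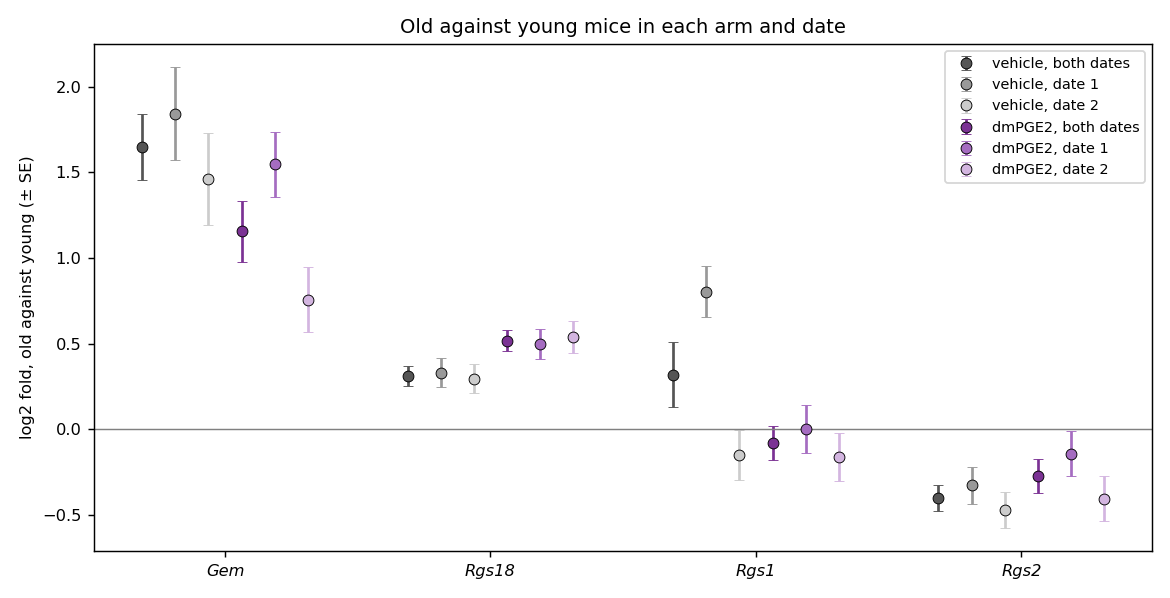
Log2 ratio of old to young mice (± SE, edgeR) for Gem, Rgs18, Rgs1 and Rgs2 in each arm, for both dates together and for each date alone. Gem and Rgs18 lay above 0 in all 6 estimates and Rgs2 below it. Rgs1 stood above 0 in the vehicle libraries of date 1, at 0.80 ± 0.15.

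None of the other RGS genes that could be tested passed with dmPGE2. Of 17 other RGS genes listed, 9 were in the table and 6 could be tested (Rgs3, Rgs9, Rgs10, Rgs12, Rgs14 and Rgs19). In each dmPGE2 comparison made over all mice, by age or by date, 0 of 6 were called. Of all genes, 0.610% were called over all mice, 0 within each age, 2.93% on date 1 and 0.387% on date 2. With such shares, 0 of 6 does not set these genes apart. The median change of the 6 on date 1 was log2 0.09, against -0.00 for all genes. Rgs19, a Galpha-interacting RGS protein, was the most abundant of them, at a median of 52.1 CPM per kb. With age, Rgs12 (log2 -0.52 ± 0.10) and Rgs19 (-0.34 ± 0.10) were lower in old mice with vehicle, and both were lower with dmPGE2 as well (-0.60 ± 0.12 and -0.36 ± 0.09). Between the dates, Rgs10 was 4.19-fold higher on date 2 with vehicle, at 6.69 to 10.4 CPM against 1.15 to 4.30.

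Among the relatives of Gem, the other RGK GTPases, Rrad was the one that could be tested of 3 listed. Like Gem, Rrad binds calcium channel beta subunits. It went from 18.3 to 45.6 CPM in the vehicle libraries of date 1 to 89.2 to 288 in the dmPGE2 libraries, and rose 5.24-fold (log2 2.39 ± 0.08, adjusted p = 5.62e-09). On date 2 it rose 1.65-fold (log2 0.73 ± 0.08, adjusted p = 0.00192), and the difference between the dates was called (log2 -1.67 ± 0.12, adjusted p = 6.14e-06). Over all mice it did not pass (1.55 ± 0.35, adjusted p = 0.144). Rrad was also higher in old mice, by log2 1.05 ± 0.15 with vehicle and 1.32 ± 0.11 with dmPGE2, and higher on date 2 with vehicle (1.11 ± 0.15).

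Next came the signaling parts on which RGS proteins act. Of 26 heterotrimeric G protein subunits and 11 receptor kinases, arrestins and Galpha chaperones, 0 were called in each dmPGE2 comparison over all mice, by age or by date. The shares of all genes called were 0.610% over all mice, 0 within each age, 2.93% on date 1 and 0.387% on date 2. With such shares, 0 calls does not set these lists apart. With age, 3 of the 25 G protein subunits tested in vehicle libraries were higher and 5 lower in old mice, where 8.47% of all genes were called higher and 8.86% lower. Among them were Gng11 (log2 0.55 ± 0.12) and Gna15 (-0.61 ± 0.11). With dmPGE2, 3 of 26 were higher and 2 lower, against 7.85% and 6.41% of all genes. Among 20 G protein-coupled receptors, Lpar6, a receptor for lysophosphatidic acid, was lower over all mice (log2 -0.50 ± 0.09, adjusted p = 0.0387). On date 1, 2 receptors rose and 3 fell, where 2.42% of all genes were called higher and 0.502% lower. S1pr1, the sphingosine phosphate receptor of lymphocyte egress, rose 2.91-fold, and Cxcr4, the niche chemokine receptor, was lower (log2 -0.78 ± 0.14). On date 2, 0 were called. In old mice 6 of the 19 receptors tested with vehicle were higher and 1 was lower, against 8.47% and 8.86% of all genes. Higher were, among others, the prostaglandin receptors Ptger4 (log2 1.24 ± 0.14) and Ptger3 (0.72 ± 0.10), Lpar6 (0.75 ± 0.09) and S1pr1 (0.78 ± 0.15). With dmPGE2, 6 of 18 were higher and 1 lower, against 7.85% and 6.41% of all genes. Ptger4 (0.99 ± 0.11) and Ptger3 (0.72 ± 0.11) were again higher.

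Early genes known to be induced by cAMP rose with dmPGE2 on both dates, more of them on date 1. Of 14, 12 rose on date 1 (median log2 1.99) and 7 on date 2 (median 0.54), and none fell. Of all genes, 2.42% were called higher on date 1 and 0.366% on date 2. For the difference between the dates, 11 had a lower response on date 2, against 1.01% of all genes. Over all mice 2 rose, Pde4b (log2 0.72 ± 0.10) and Crem (1.32 ± 0.19), against 0.509% of all genes called higher. The list was drawn up with earlier results of these data known, so its direction is no separate evidence.

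The genes whose levels followed each member most closely were ranked by Pearson's r of log2 CPM over the 16 libraries, among 10700 candidates (10701 for Rgs16). The nearest to Rgs1 were Nr4a1 (r = 0.981), Sik1 (0.976) and Plaur (0.970), and the nearest to Rgs2 were Stk17b (0.975), Ccrl2 (0.964) and Hey1 (0.962). Nr4a1 is an orphan nuclear receptor and Sik1 a salt-inducible kinase. Rgs18 was nearest to Ece1 (0.963), Fam131a (0.960) and Clec1a (0.950), and Gem to Tnfaip2 (0.932), Rnf19b (0.922) and Lcp2 (0.921). For Rgs16 the highest values were lower, led by Exoc5 (0.846). By the change with dmPGE2 in the 8 mice, Rgs1 was nearest to Egr1 (0.993), Rgs2 to Klf4 (0.995), Gem to Dach2 (0.981), Rgs18 to Ugp2 and Rgs16 to Ces2g (0.960). The points share mice, dates and treatment, so these values are a description without a test.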

How the data were processed

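The deposited table holds raw read counts per gene for the 16 libraries, whole numbers without normalization. Per the submitters' processing notes, the tools included Subread 1.5.1, featureCounts and STAR 2.5.2b on build mm10, and the labels' protocols name the RNeasy Plus Mini Kit and Nextera XT, which does not mark strand. Not given in the sources used here: the annotation behind the counts and the meaning of the dates. Of its lines, 14829 held genes and 2504 were empty, 0 sample columns were unmatched, and each gene lay above 0.5 CPM in 2 or more libraries, so genes below that are not analysed here.

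These deposited counts entered edgeR 4.0.16 (R 4.3.3), whose robust quasi-likelihood test was run after TMM scaling and filterByExpr. P-values were adjusted by Benjamini-Hochberg over all genes tested, with 0.05 as the threshold for a call. The dmPGE2 fits took 16 libraries (13942 genes) with mouse as a block. One had a dmPGE2 term for each age (6 residual degrees of freedom) and the other for each age and date (4). Age and vehicle date effects came from 8 vehicle (13369 genes) or 8 dmPGE2 libraries (13279 genes) with terms for age and date (5). Each SE is the absolute log2 ratio over the square root of F. CPM are TMM-scaled, with a prior count of 2 on the log2 scale. Pairing comes from the labels, since each mouse gave both libraries. After removal of group means the libraries of a mouse correlated at 0.516 to 0.736. Each group holds mice of both dates, so the date difference remains in these values and they do not test the pairing.

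A count of 0, read as up to 3 counts, allows 0.156 to 0.2315 CPM, which covers counting error only because the reads carry no molecular identifiers. The tests were checked on simulated counts. The members, lists and comparisons were chosen with earlier results of these data known. The 5 members are always given, with up to 4 called genes of each list by smallest p considered for naming, and the 3 genes most alike each member. Alternatives were DESeq2 1.42.0, its size factors, no filter, no replicate block, no date term, date terms, each date alone and leaving out each mouse.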

Additional observations from a re-analysis of the deposited data

Results flagged for a closer look

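In 3 of 20 combinations of gene and group, each with 4 libraries, 1 library stood far from the rest. Each group mixes mice of both dates, and how often this arises by chance was not tested. In young vehicle, mouse 483 had 1.53 CPM of Rgs16 and 58.8 CPM of Gem. In old vehicle, mouse 485 had 2.62 CPM of Rgs16. These Rgs16 levels are raw counts of 23 (mouse 483) and 40 (mouse 485), of a gene hardly detected. Mice 483 and 485 belong to date 2.

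The response to dmPGE2 differed between the dates for 3 genes, by the test of the difference itself. On the log2 scale, date 2 minus date 1 was -2.24 for Rgs1, -2.22 for Rgs2 and -0.80 for Gem, the last with an adjusted p of 0.0459 (edgeR). No cause of these differences was tested.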

How the results depend on the processing

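Members called under other settings. Over all mice, 1 member was called, against 3 with DESeq2, 3 with date terms and 0 to 1 without 1 mouse. In young mice 0 were called, against 1 with DESeq2, 3 with date terms, 3 on date 1 alone and 1 on date 2 alone. In old mice 0 were called, against 3 with date terms, 3 on date 1 alone and 1 on date 2 alone. On date 2, 1 was called, against 3 with DESeq2. Old against young vehicle gave 3, against 1 without a date term. Date 2 against date 1 gave 3 with vehicle, against 0 in dmPGE2 libraries. DESeq2 size factors and no filter changed none of these counts of members called. Dates alone and dmPGE2 libraries were settings added after the data were seen. Old against young with dmPGE2 gave 2, and under 1 other setting 1 further member was called.

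Genes called in all moved more. Over all mice 85 became 443 with DESeq2, 347 with date terms, 175 without the replicate block and 0 to 166 without 1 mouse (0 without mouse 477, 2 without 478, 1 without 479, 5 without 480, 55 without 483 and 166 without 485). The 0 calls of young mice became 277 with DESeq2, 257 with date terms, 249 and 47 on the dates alone, and up to 4 without 1 mouse. The 0 of old mice became 114, 210, 247 and 19, and the 0 of old minus young became 17 with DESeq2, 1 with date terms, 5 on date 1 and up to 2 without 1 mouse. Date 1 gave 408, and 236 to 446 without 1 mouse. Date 2 gave 54, 133 with DESeq2 and 10 without the replicate block. The date difference gave 151, 246 with DESeq2 and 100 to 160 without 1 mouse. Old against young gave 2318 with vehicle and 1894 with dmPGE2, 971 and 804 without a date term, 865 and 774 on date 1, 1057 and 1097 on date 2, and as few as 1448 (without mouse 480) and 1104 (without 478). Date 2 against date 1 with vehicle gave 1472, and 902 without mouse 477.

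Several estimates changed sign (log2). Without 1 mouse, the Rgs16 change ran from -1.96 to 0.21 in old mice, from -2.96 to 3.05 on date 2 and from -3.94 to 2.08 for the date difference, and on date 2 it was -0.0893 without the replicate block. Old minus young ran from -0.932 to 0.0945 for Rgs1 and from -0.30 to 0.56 for Rgs2. Rgs18 ran from -0.00835 to 0.0385 on date 1 and from -0.00358 to 0.0720 for the date difference. Rgs1 in old against young dmPGE2 ran from -0.132 to 0.0213, and was 0.00207 on date 1 alone, where Rgs16 was 0.64. Rgs1 in old against young vehicle was -0.15 on date 2 alone. In dmPGE2 libraries the date difference was -0.24 for Rgs1, which was called 4.01-fold higher with vehicle, and -0.32 for Gem, against 0.52 with vehicle. Rgs1 and Rgs2 over all mice passed with DESeq2 (adjusted p = 0.0358 and 0.00735) and with date terms. On date 2, DESeq2 also called Rgs1 (0.000571) and Gem (0.0258). Without the mouse block, the date difference of Gem was -0.82 and lost its call, and no other member's call changed in the fits with and without the block. The cause of these changes was not tested.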
